A study of Mus musculus with 6 samples.

Results

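Wnt proteins are secreted, lipid-bearing signals that bind Frizzled receptors on the surface of a cell. When a co-receptor of the LRP family (Lrp5 or Lrp6) is bound as well, beta-catenin is spared from destruction and turns on target genes, while other Wnt signals act without beta-catenin. R-spondins are secreted proteins that bind Lgr receptors and the ubiquitin ligases Znrf3 and Rnf43, which otherwise remove Frizzled receptors from the membrane. In bone, this pathway drives osteoblast formation and bone mass, and Lrp4 holds the Wnt inhibitor sclerostin. The genes described here are the Wnt ligands, the Frizzled receptors, the R-spondins, Lgr4 to Lgr6 and Lrp4 to Lrp6, chosen by symbol. They come to 39 genes of 19938 that had a probe set of their own: 19 Wnt genes, 10 Frizzled genes, 4 R-spondins, 3 Lgr genes and 3 Lrp genes.

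Their RNA was measured on microarrays in Cxcl12-abundant reticular (CAR) cells, a stromal population of bone marrow that surrounds blood-forming cells. Targeted CAR cells, those in which the Cre of the Dmp1-Cre transgene had acted (3 arrays, biological replicates by the labels), were set against non-targeted CAR cells (3 arrays), both sorted by flow cytometry from femur and tibia marrow. All mice were C57BL/6, 7 weeks of age, and carried Dmp1-Cre together with 1 Cxcl12-gfp allele, so the non-targeted cells shared both alleles with the targeted ones. The transgene uses regulatory sequence of Dmp1, a gene of late osteoblasts and osteocytes, and what marked a cell as targeted at the sort is not given in the sources used here.

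The arrays' median intensities ran from 79.4 to 87.5, and all levels below are log2 intensities. The 13 fixed CAR cell markers all lay above background, and Dmp1 was at 9.89 to 11.28 in targeted cells, against 6.91 to 7.51 in non-targeted cells. Targeted replicate 1 stood apart: 12 neutrophil markers averaged 6.24 there and 7.81 to 8.71 on the other 5 arrays, and 9 osteoblast markers averaged 10.47 there against 9.15 to 9.98 elsewhere. Results are therefore also given without that array where it moves them. It was also the only targeted array high in Xist, the RNA of the inactive X chromosome (12.00, against 5.80 and 5.64). Without it, high Xist remains on a non-targeted array only (11.31), so those fits are unbalanced in sex as read from Xist.

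Background was set by genes for smell, pheromone and bitter taste receptors, which marrow stroma is not known to use. The 95th percentile of the mean levels of 1224 such genes was 6.37 and the 99th was 7.10. Of the 39 genes, 26 (66.7%) had a mean above 6.37, as did 56.5% of all genes and, by construction, 5.07% of the receptor genes. Above 7.10 were 13 of the 39 (33.3%), against 36.5% of all genes. These were Wnt4, Wnt5b, Fzd1, Fzd2, Fzd4, Fzd5, Fzd7, Fzd9, Rspo2, Rspo3, Lrp4, Lrp5 and Lrp6. They were among 21 of the 39 genes that exceeded each array's own 95th percentile on all 6 arrays. Intensities of different probe sets depend on their sequences, so they are compared with background and between groups, not with each other.

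**Figure D1:**
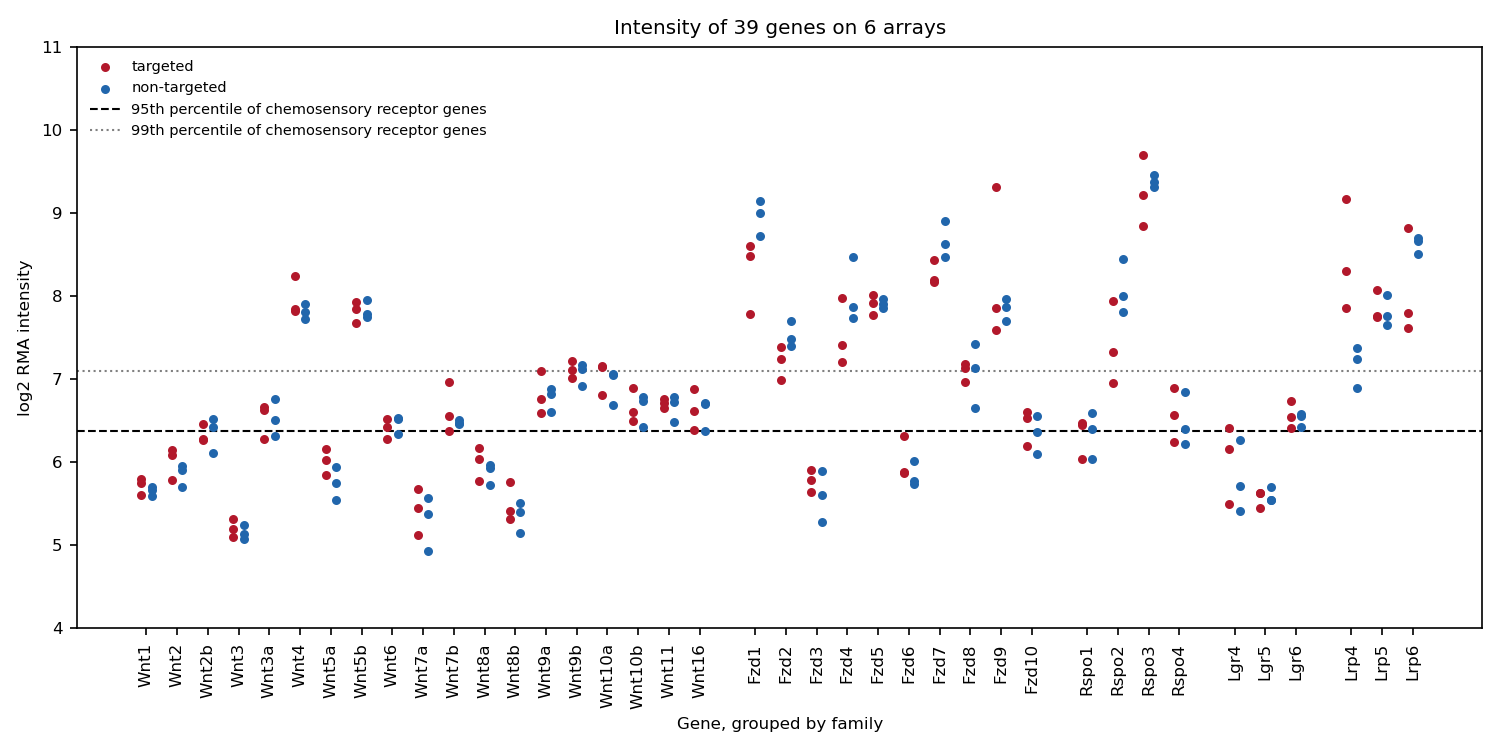
Log2 RMA intensity (vertical axis) of the 39 genes, grouped by family (horizontal axis), with 1 point for each array, targeted in red left of non-targeted in blue, and lines at the 95th and 99th percentiles of the receptor genes (6.37 and 7.10). Of the Wnt genes, Wnt4 and Wnt5b have means above the upper line, as do 6 Frizzled genes, 2 R-spondins and all 3 Lrp genes.

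Between the populations, Lrp4 had the smallest p of the 28 genes tested from the set and was higher in targeted cells. Fzd1, Fzd2 and Fzd7 were lower on every targeted array. None of these differences passed limma's test over all genes. Of the 39 genes, 28 passed the filter on dim genes and were tested, 15 of them higher and 13 lower in targeted cells with a median log2 difference of 0.02, against -0.01 for all 13292 genes tested. Without non-targeted replicate 2 the split was 6 higher and 22 lower, with a median of -0.07. The call at a limma adjusted p under 0.05 was met by 0 of the 28 and by 0 (0%) of all genes. At an unadjusted p under 0.05 the count was 4 of 28, against 4.77% of all genes. Lrp4 was the 1 higher gene, against 1.35%, and Fzd1, Fzd7 and Rspo2 were the 3 lower ones, against 3.42%. A difference of at least 1.5-fold was seen for 3 of 28, against 4.51% of all genes, with Lrp4 higher, against 1.35%, and Fzd1 and Rspo2 lower, against 3.16%. All targeted arrays lay beyond all non-targeted arrays for 4 of 28 (14.3%), against 9.07% of all genes: 1 was higher, against 3.32%, and 3 were lower, against 5.76%. In sorted bulk RNA, fewer cells that express a gene and less RNA per cell cannot be told apart.

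**Figure D2:**
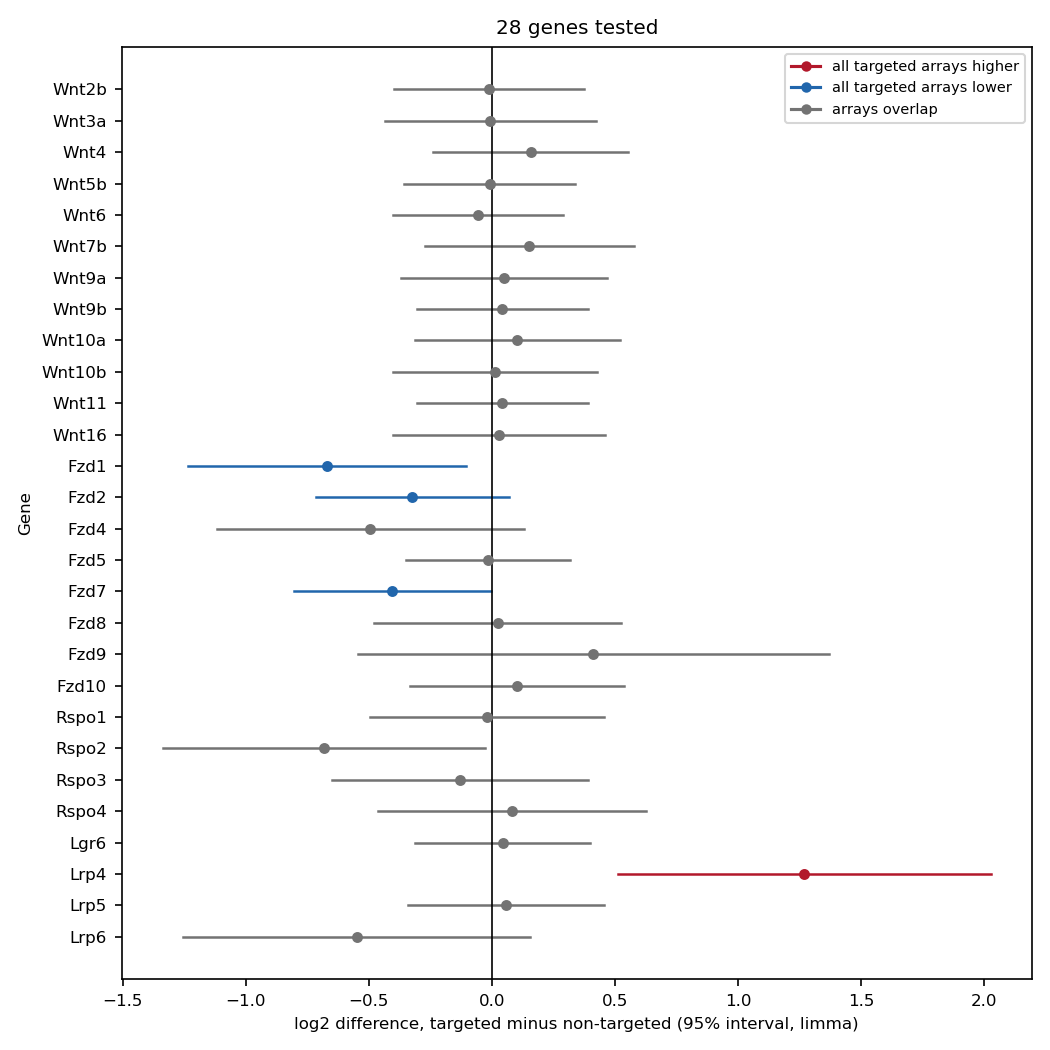
Log2 difference, targeted minus non-targeted (horizontal axis), with its 95% interval from limma for the 28 genes tested (vertical axis). Lrp4 in red has all targeted arrays higher, Fzd1, Fzd2 and Fzd7 in blue have all targeted arrays lower, and the other genes overlap between the populations.

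Among the ligands, 11 of 19 Wnt genes lay above the 95th percentile of background but only Wnt4 and Wnt5b above the 99th. Wnt4, a ligand studied in kidney and gonad development and in bone, averaged 7.97 ± 0.24 in targeted cells, against 7.81 ± 0.09 in the non-targeted ones (mean ± SD over 3 arrays, as for all means below). A second probe set of Wnt4 had nearly the same mean over the arrays, 7.84. It gave a difference of -0.06 where the first gave 0.16, so no direction is read for Wnt4. The counts of genes higher and lower include Wnt4 as higher, by the first and brighter probe set. Wnt5b, a ligand that mostly acts without beta-catenin, averaged 7.82 ± 0.13 in targeted cells, against 7.83 ± 0.11 in non-targeted cells, with a difference of -0.01 (95% interval -0.36 to 0.34).

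The other 9 Wnt genes above the 95th percentile were Wnt3a, Wnt6, Wnt7b, Wnt9a, Wnt9b, Wnt10a, Wnt10b, Wnt11 and Wnt16. Wnt9b was nearest to the higher limit, at 7.11 ± 0.10 in targeted cells, against 7.07 ± 0.13 in non-targeted cells. Wnt10a was at 7.04 ± 0.19 in targeted cells, against 6.94 ± 0.22 in non-targeted cells, and Wnt10b, a ligand that favours osteoblasts over fat cells, was at 6.66 ± 0.21 in targeted cells, against 6.65 ± 0.20 in non-targeted cells. Wnt11 was at 6.71 ± 0.05 in the targeted group, against 6.67 ± 0.16 in the non-targeted group. Wnt16, a ligand of cortical bone strength, was at 6.63 ± 0.25 in the targeted group, against 6.60 ± 0.19 in the non-targeted group. Wnt7b reached 6.97 on targeted replicate 3 and stayed between 6.37 and 6.56 on the other arrays. Over the 12 Wnt genes tested, differences ran from -0.06 to 0.16, 8 being higher and 4 lower. The 0.16 was that of Wnt4 by its brighter probe set. Non-overlapping arrays were seen for 0 of 12, against 9.07% of all genes.

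The mean was not above background for 8 Wnt genes: Wnt1, Wnt2, Wnt2b, Wnt3, Wnt5a, Wnt7a, Wnt8a and Wnt8b had means from 5.18 to 6.34. Wnt2b, the highest of them, exceeded its own array's limit on 3 of 6 arrays. Among them, Wnt1 and Wnt5a are ligands with known roles in bone formation. Wnt5a was at 6.16, 6.03 and 5.84 for targeted cells, against 5.95, 5.75 and 5.55 for non-targeted cells. On no array did Wnt1 or Wnt5a exceed that array's own 95th percentile of background, so a level was not detectable with these probe sets.

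Of the 4 R-spondins, Rspo2 and Rspo3 were above both background limits. Rspo3, which strengthens Wnt signals through Lgr receptors and ubiquitin ligases, was at 9.70, 8.84 and 9.22 for targeted cells, against 9.32, 9.46 and 9.37 for non-targeted cells. The targeted arrays spread around the tight non-targeted values, with replicate 1 above all of them and the other two below. The difference was -0.13 (SE 0.22, 95% interval -0.65 to 0.39, limma adjusted p = 0.9998), and without targeted replicate 1 it was -0.35.

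Rspo2 (probe set 10428388) was at 7.94, 7.33 and 6.95 for targeted cells, against 8.45, 8.01 and 7.81 for non-targeted cells. Both populations varied widely, and targeted replicate 1 was higher than non-targeted replicate 3, so the arrays overlapped. Rspo2 was 1.60-fold lower in targeted cells (log2 difference -0.68, SE 0.28, 95% interval -1.34 to -0.03) without passing (limma adjusted p = 0.9998). The difference was -0.95 without targeted replicate 1 and -0.45 without targeted replicate 3. Rspo4 averaged 6.57 ± 0.33 in targeted cells, against 6.49 ± 0.33 in non-targeted cells, just above the lower limit of background, and Rspo1, at a mean of 6.33, lay below it.

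The receptors of the R-spondins gave little signal. Lgr4, the Lgr gene with the widest expression in adult tissues, was at 6.15, 6.41 and 5.50 for targeted cells, against 5.41, 5.72 and 6.26 for non-targeted cells. Lgr5, a marker of intestinal stem cells, averaged 5.57 ± 0.11 in targeted cells, against 5.60 ± 0.09 in non-targeted cells. Both stayed under their own array's limit on all 6 arrays, and both were left out as dim. Lgr6 averaged 6.57 ± 0.16 in targeted cells, against 6.52 ± 0.09 in non-targeted cells, above the limit of its own array on 5 of 6 arrays.

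The Frizzled genes included all 3 genes of the set that were lower on every targeted array. Of 10 genes, 8 were above background and tested, 5 of them lower and 3 higher in targeted cells, with a median of -0.17, and for 3 of 8 all targeted arrays were lower, against 5.76% of all genes. Fzd1 (probe set 10527936), a receptor for several Wnt ligands, was at 8.48, 8.60 and 7.79 for targeted cells, against 8.72, 9.15 and 9.0 for non-targeted cells. All targeted arrays were lower, replicate 3 by the most. Fzd1 was 1.59-fold lower (log2 difference -0.67, SE 0.24, 95% interval -1.23 to -0.10, limma adjusted p = 0.970). Without targeted replicate 3 the difference was -0.42, and without targeted replicate 1 it was -0.76.

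Fzd7 (probe set 10346607), which belongs to the same subfamily as Fzd1 and Fzd2, was at 8.19, 8.17 and 8.43 for targeted cells, against 8.47, 8.90 and 8.63 for non-targeted cells. The highest targeted array was just under the lowest non-targeted one. Its difference was -0.40, or 1.32-fold lower (SE 0.17, 95% interval -0.80 to -0.01, limma adjusted p = 0.9998). Fzd2 (probe set 10381603) was at 6.99, 7.24 and 7.39 for targeted cells, against 7.70, 7.49 and 7.40 for non-targeted cells, so that the groups were parted by a margin of the second decimal. Its difference was -0.32, or 1.25-fold lower (SE 0.17, 95% interval -0.72 to 0.07, limma adjusted p = 0.9998), and its arrays overlapped after quantile normalization. The CAR cell markers differed in the same direction: 13 of 13 were lower in targeted cells, with a median of -0.34, and 3 had non-overlapping arrays, against 5.76% of all genes. Their mean level was 11.30, 10.89 and 10.87 for targeted cells, against 11.23, 11.51 and 11.31 for non-targeted cells, so the list as a whole overlapped. Of 10 neutrophil markers tested, 9 were lower in targeted cells, with a median of -1.14. Non-overlapping arrays were seen for 0 of these 10, against 9.07% of all genes. The 12 with a value averaged 6.24, 7.81 and 8.48 for targeted cells, against 8.07, 8.43 and 8.71 for non-targeted cells. The part of either list in the Frizzled and R-spondin differences was not tested.

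The start regions of Fzd1 and Fzd7 are shown because both genes were lower on all targeted arrays. Of the 5 genes with the largest or non-overlapping differences, these 2 were matched in the RefSeq promoter table. Each window holds 250 bases before to 50 after the start of the gene, on GRCm38.p6, 5′ to 3′ on the gene's own strand. Capitals mark matches on either strand to the TCF/LEF cores CTTTGA and CTTTGT (reverse complements TCAAAG and ACAAAG) and to the GC box GGGCGG (reverse complement CCGCCC). The RUNX core TGTGGT was searched as well.
Fzd1, chr5:4758167-4758466, minus strand: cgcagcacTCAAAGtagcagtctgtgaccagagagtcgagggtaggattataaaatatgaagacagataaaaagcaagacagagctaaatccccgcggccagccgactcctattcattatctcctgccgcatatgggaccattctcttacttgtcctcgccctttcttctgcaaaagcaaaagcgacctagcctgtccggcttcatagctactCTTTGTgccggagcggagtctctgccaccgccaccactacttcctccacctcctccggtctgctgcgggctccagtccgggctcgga
Fzd7, chr1:59481897-59482196, plus strand: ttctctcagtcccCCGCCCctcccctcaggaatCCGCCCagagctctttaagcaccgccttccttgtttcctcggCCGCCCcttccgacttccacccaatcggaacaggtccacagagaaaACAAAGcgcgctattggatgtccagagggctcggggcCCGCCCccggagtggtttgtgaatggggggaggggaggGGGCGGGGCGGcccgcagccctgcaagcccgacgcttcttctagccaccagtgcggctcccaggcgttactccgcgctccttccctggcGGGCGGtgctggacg

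Both windows held the core CTTTGT, which 18.7% of 32544 promoter windows of the same length hold. In Fzd1 it began at position -37 relative to the start, and in Fzd7 its reverse complement began at position -129. Fzd1 also held the reverse complement of CTTTGA, a core found in 16.0% of windows, at position -242, and Fzd7 had 0 of that core. Fzd7 had 7 GC boxes, of which a pair overlap by a base, and Fzd1 had 0. At least 1 GC box is in 35.9% of windows. The GC content was 54.0% in the Fzd1 window and 66.7% in the Fzd7 window. The RUNX core, in 16.7% of windows, was in neither. These matches describe the letters and do not show that a factor binds there.

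Among the other Frizzled genes, Fzd4 and Fzd9 were uneven between arrays. Fzd4, a receptor for Wnt ligands and for norrin, was at 7.98, 7.41 and 7.20 for targeted cells, against 7.87, 8.47 and 7.74 for non-targeted cells. Targeted replicate 1 lay within the non-targeted range and the other two below it. The difference was -0.49 (95% interval -1.12 to 0.13), and -0.72 without targeted replicate 1 (limma adjusted p = 0.511, range 0.511 to 1.00 over the alternatives). Fzd4 is also a gene of endothelial cells, of whose 10 fixed markers 8 were at or below background, Pecam1 and Cdh5 among them. Stab2 and Tie1 lay above it, at means of 6.67 and 6.41. The 10 markers averaged 5.71 to 6.06 for targeted cells, against 5.77 to 6.01 for non-targeted cells. The part of such cells in the Fzd4 level was not tested.

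Fzd9, a receptor needed for full osteoblast function in mice, was at 7.60, 9.32 and 7.86 for targeted cells, against 7.70, 7.96 and 7.87 for non-targeted cells. Only targeted replicate 2 was high. The difference of 0.41 (SE 0.41) turned to -0.12 without that array. Fzd5 differed by -0.01, averaging 7.90 ± 0.12 in targeted cells, against 7.92 ± 0.05 in non-targeted cells. Fzd8 averaged 7.10 ± 0.11 in targeted cells, against 7.07 ± 0.39 in non-targeted cells, and Fzd10 averaged 6.44 ± 0.21 in targeted cells, against 6.34 ± 0.23 in non-targeted cells, near the lower limit of background. Fzd3 and Fzd6, receptors best known for cell polarity, were not above it, at means of 5.69 and 5.93.

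**Figure D3:**
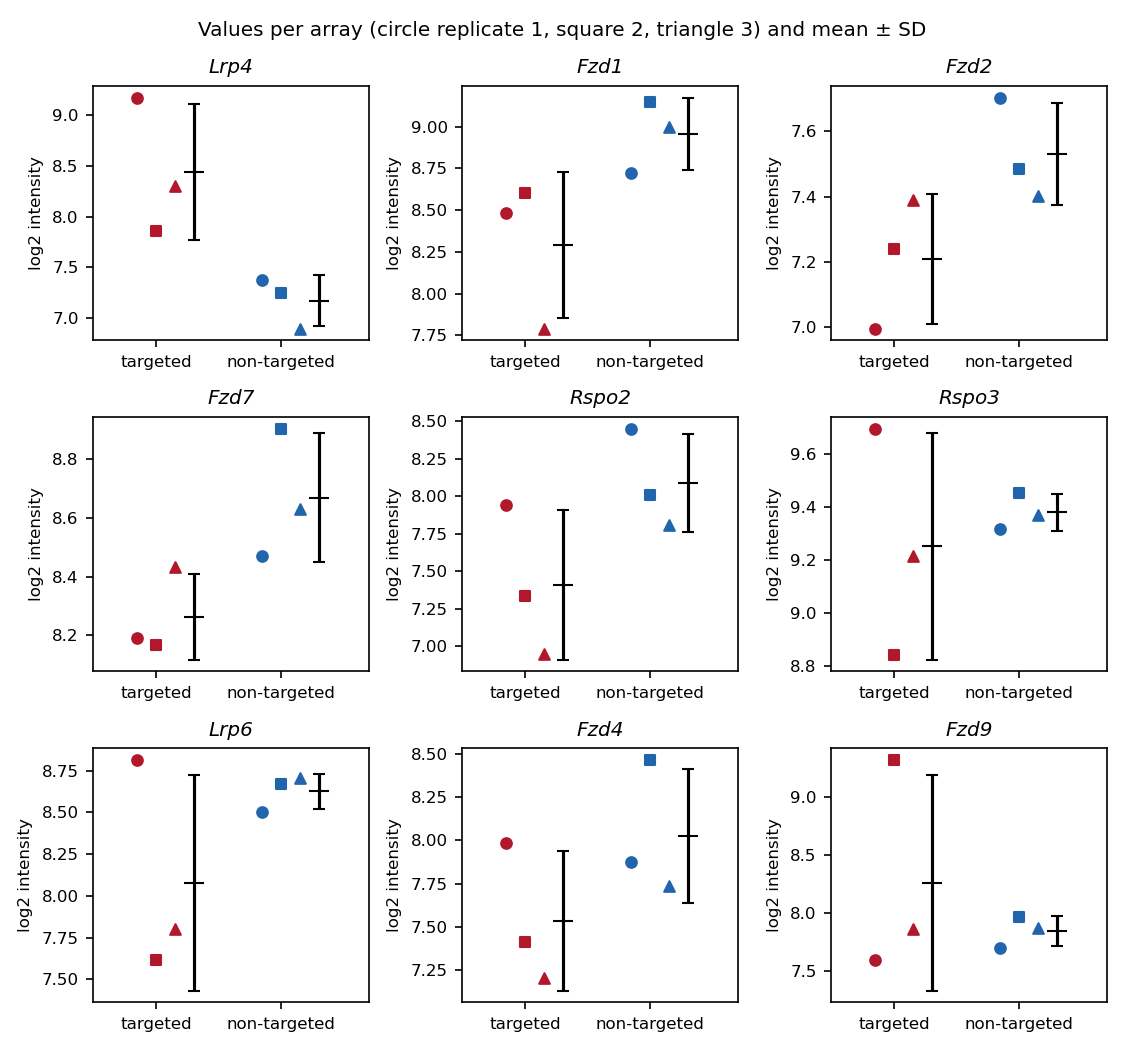
Log2 intensity (vertical axes, each panel with its own range) of 9 genes on each array, targeted left of non-targeted, with the mean and SD of 3 arrays beside the points. Lrp4 is higher, and Fzd1, Fzd2 and Fzd7 are lower, on all targeted arrays, while Rspo3, Lrp6 and Fzd4 show targeted replicate 1 above the other targeted arrays and Fzd9 is high on targeted replicate 2 alone.

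Lrp4 differed from the other Lrp genes. Lrp4 encodes a receptor that binds sclerostin in bone and agrin at the nerve-muscle junction. Its probe set, 10473880, was at 9.17, 7.85 and 8.30 for targeted cells, against 7.38, 7.25 and 6.89 for non-targeted cells. Every targeted array was above every non-targeted one, with targeted replicate 1 the highest. Lrp4 was 2.41-fold higher in targeted cells (log2 difference 1.27, SE 0.33, 95% interval 0.51 to 2.03) and did not pass over all genes (limma adjusted p = 0.758). Without targeted replicate 1 the difference was 0.90, and over all leave-one-out fits it ran from 0.90 to 1.56.

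Osteoblast markers were higher on the same arrays as Lrp4. The 9 of 12 fixed markers with a value averaged 10.47, 9.80 and 9.98 for targeted cells, against 9.29, 9.25 and 9.15 for non-targeted cells. Targeted replicate 1 was the highest and replicate 2 the lowest targeted array for both the markers and Lrp4. Of the 8 markers tested, 7 were higher and 1 was lower, and 6 had all targeted arrays higher, against 3.32% of all genes. Dmp1, whose regulatory sequence the transgene uses, was among these 6, so its difference is not independent of how the cells were marked. The list was also chosen with earlier results of these data known. Mepe, a matrix protein gene of osteocytes, was below background. The part of such cells in the Lrp4 difference was not tested.

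Lrp5 and Lrp6, the co-receptors that pass Wnt signals to beta-catenin, did not show the Lrp4 pattern. Lrp5, in which loss or gain of function changes bone mass, averaged 7.86 ± 0.19 in targeted cells, against 7.81 ± 0.18 in non-targeted cells, with a difference of 0.06 (95% interval -0.34 to 0.46). Lrp6 was at 8.82, 7.61 and 7.80 for targeted cells, against 8.51, 8.67 and 8.71 for non-targeted cells. Targeted replicate 1 was above all non-targeted arrays and the other two were far below them. The difference was -0.55 (SE 0.30, 95% interval -1.25 to 0.16). Without targeted replicate 1 it was -0.92, with the smallest adjusted p of the set in that fit (limma, 0.326, range 0.326 to 1.00 over the alternatives).

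Leaving out targeted replicate 1 therefore changed which genes had non-overlapping arrays. Lrp4, Wnt7b and Wnt10a were then higher, and Fzd1, Fzd2, Fzd4, Fzd7, Lrp6, Rspo2 and Rspo3 lower, 10 of 28 in all. With 2 targeted arrays left, neither of them high in Xist, 27.5% of all genes had non-overlapping arrays. In that fit 0 of the 28 and 0 of all genes passed limma's test, while 5 of the 28 and 1115 of all 13292 genes had an unadjusted p under 0.05.

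**Figure D4:**
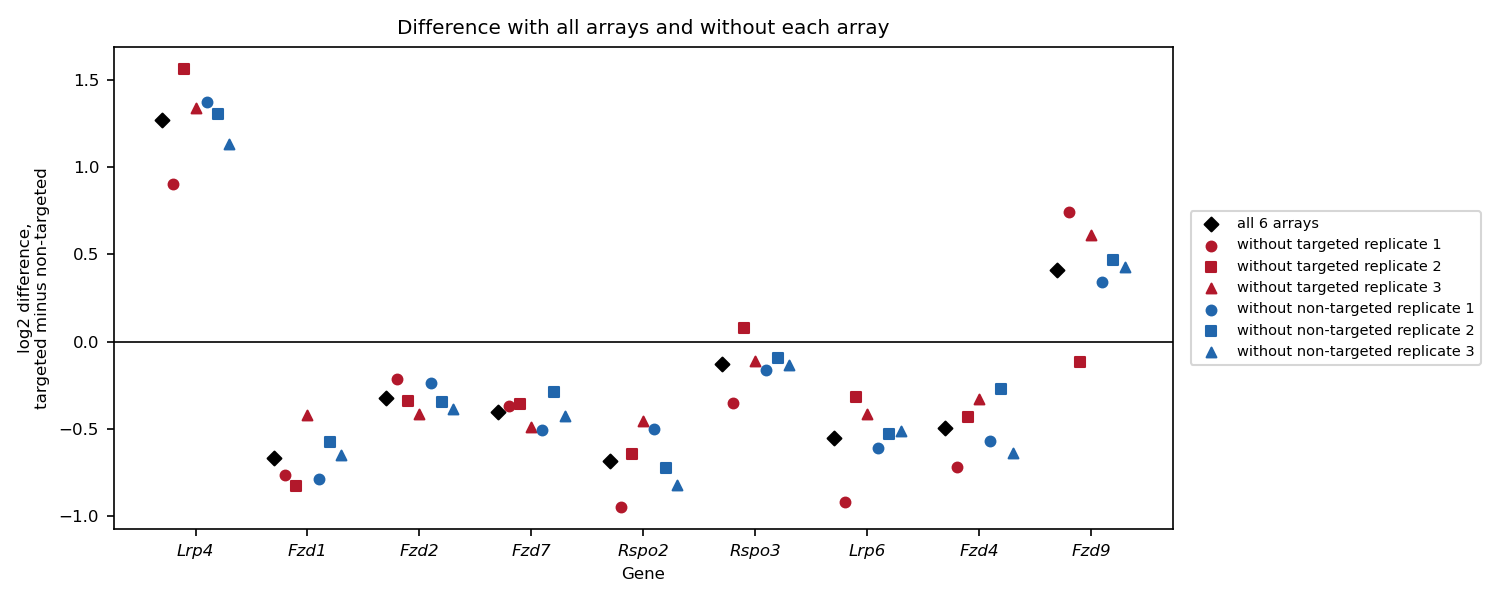
Log2 difference, targeted minus non-targeted (vertical axis), of 9 genes (horizontal axis) with all 6 arrays (black) and without each array in turn. Lrp4 lies at 0.90 to 1.56 and Rspo2, Lrp6 and Fzd4 stay below 0, while Rspo3 and Fzd9 cross it. Lrp4, Fzd1, Fzd2 and Fzd7, whose arrays do not overlap, cannot cross 0 here.

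The rest of the pathway was read from 91 genes in 7 lists. Of these, 84 were tested, 43 higher and 41 lower in targeted cells, with a median log2 difference of 0.00, and 0 passed limma's test. An unadjusted p under 0.05 was found for 6 of the 84, against 4.77% of all genes. The arrays did not overlap for 8 of 84 (9.52%), close to the 9.07% of all genes. They were Wif1, Ctnnb1 and Ccnd1, which were higher, and Vps35, Vps26a, Adgra2, Znrf3 and Tle4, which were lower. Tle4, at a mean of 6.32, was not above background. Its targeted mean of 5.97 was under the 6.00 of the filter on dim genes, which it passed through the non-targeted arrays.

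In the list of 8 genes for Wnt secretion, 4 were higher and 4 lower. The higher ones include Notum, which is not a secretion gene but removes the lipid from Wnt proteins. Vps35, a subunit of the retromer complex that recycles the Wnt carrier Wls, was at 7.77, 7.41 and 7.09 for targeted cells, against 8.19, 8.38 and 8.45 for non-targeted cells. Its partner Vps26a was at 7.73, 6.90 and 6.93 for targeted cells, against 8.23, 7.78 and 8.18 for non-targeted cells. For both, all targeted arrays were lower, by -0.92 (limma adjusted p = 0.701) and -0.87 (limma adjusted p = 0.860). Porcn, the enzyme that attaches the lipid to Wnt proteins, differed by 0.44 and Tmed5, a cargo receptor, by -0.34, with overlapping arrays.

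Znrf3, the ligase that removes Frizzled receptors and Lrp6 from the membrane and is itself induced by Wnt signals, was at 7.55, 7.25 and 7.38 for targeted cells, against 7.80, 8.14 and 7.68 for non-targeted cells. All targeted arrays were lower, by -0.48 (SE 0.18, limma adjusted p = 0.970). Its relative Rnf43 averaged 6.50 ± 0.23 in targeted cells, against 6.49 ± 0.24 in non-targeted cells, near background. Of the 15 tested genes for other Wnt receptors and cell polarity, 7 were higher and 8 lower. Adgra2, a receptor that works with Reck in brain vessels, was at 8.51, 7.91 and 8.51 for targeted cells, against 8.84, 8.62 and 8.52 for non-targeted cells. All targeted arrays were lower, 2 of them only just, by -0.35 (limma adjusted p = 0.9998). Gpc6 differed by -0.20, Ror2, a receptor for Wnt5a, by 0.17 and Vangl2 by -0.12.

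Of the 20 tested genes of the beta-catenin core, 10 were higher and 10 lower. Ctnnb1, the gene of beta-catenin itself, was at 9.39, 8.62 and 8.98 for targeted cells, against 8.53, 8.46 and 8.48 for non-targeted cells. All targeted arrays were above a tight non-targeted group, by 0.51 (SE 0.21, limma adjusted p = 0.9998). Btrc, which marks beta-catenin for destruction, differed by -0.30, and the kinase genes Csnk1a1 and Csnk1g2 by -0.26 and -0.21. Among 13 tested nuclear factors, 4 were higher and 9 lower. Tle4, a repressor that binds TCF proteins, was at 5.87, 6.04 and 5.98 for targeted cells, against 6.30, 6.91 and 6.82 for non-targeted cells. It exceeded its own array's background on 0 of 3 targeted and 2 of 3 non-targeted arrays, so no size of difference is given. Ctnnbip1 differed by 0.22, Bcl9l by -0.25 and Pygo1 by -0.19.

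Of the 19 tested Wnt target genes, 13 were higher and 6 lower, with a median of 0.08. Axin2, the most widely used readout of beta-catenin signalling, was at 6.84, 7.06 and 7.29 for targeted cells, against 7.03, 6.92 and 6.86 for non-targeted cells, which overlapped. Ccnd1, a cyclin gene, was at 8.18, 7.46 and 6.97 for targeted cells, against 6.96, 6.94 and 6.78 for non-targeted cells. The targeted arrays were higher, the lowest of them only just, by 0.64 (limma adjusted p = 0.9998). Ccn5 differed by -0.53 and Ccn4 by 0.24, with overlapping arrays. Of the 12 tested secreted antagonists and their receptors, 8 were higher and 4 lower. Wif1, an inhibitor that binds Wnt proteins and also one of the osteoblast markers, was at 12.25, 11.77 and 11.95 for targeted cells, against 11.06, 11.20 and 11.17 for non-targeted cells. All targeted arrays were higher, by 0.85 (limma adjusted p = 0.701). Sfrp1 differed by -0.48 and Sfrp4 by -0.47, with overlapping arrays. Sfrp5, at a mean of 6.33, was not above background and exceeded its own array's limit on 1 of 6 arrays, so no size of difference is given. Sost, the gene of the sclerostin that Lrp4 binds, was at 6.95, 7.35 and 7.36 for targeted cells, against 7.41, 6.86 and 7.28 for non-targeted cells, with no separation.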

How the data were processed

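Per the submitters' processing notes, the authors made the deposited intensities with RMA, using version 1.4 of Affymetrix Expression Console. Their annotation and build are not stated there. The values were linear, so log2 was taken. Of 35556 probe sets, 21789 named 1 gene, 1621 named several and 12146 were not listed. Symbols were updated through GRCm38.p6 RefSeq identifiers for 21698. Each gene took its brightest probe set by the mean over 6 arrays, which gave 19938 genes. The dimmest 33.3%, at or below 6.00, were left out.

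Targeted minus non-targeted was tested by lmFit and eBayes of limma 3.58.1 under R 4.3.3 (no covariate, two-sided, Benjamini-Hochberg over 13292 genes, threshold 0.05). The number of arrays limits the precision. The fit was tested on simulated data. Intervals are 95% and SDs are over 3 arrays. Background was the 95th percentile of chemosensory receptor genes. Every array's value is given for genes of the set above background with non-overlapping arrays or a difference of at least 1.5-fold. Up to 4 genes of each pathway list by smallest p are named. Axin2, Sost, the array values of pathway genes and those of Wnt5a, Wnt7b, Lgr4, Rspo3, Fzd4, Fzd9 and Lrp6 were added after their values were seen. Members and lists were chosen with earlier results of these data known. Alternatives changed the filter, scaling, variance model, probe set rule, replicate block and arrays used.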

Additional observations from a re-analysis of the deposited data

How the results depend on the processing

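Over 15 alternative settings of the fit, 0 of the set's genes tested in each and 0 of the pathway genes passed limma's test. The fewest genes of the set with an unadjusted limma p under 0.05 were 1 of 28, without non-targeted replicate 2, against 438 of 13292 genes. The most were 5 of 28, without targeted replicate 1, against 1115 of 13292 genes. Of all genes, 1 passed under the replicate block and 0 passed in the other settings. The block cannot change a difference, because each number occurs once in each population. The smallest limma adjusted p among the set's genes was then 0.667. The labels do not say that a number marks a mouse. Deviations of same-numbered arrays from their group means correlated at -0.26, -0.12 and 0.07 across genes. Those of differently numbered arrays ran from -0.26 to 0.32. The main fit took no pairs, because the labels do not give them. With 3 arrays per group, these correlations cannot exclude pairing. Xist was high on replicate 1 of both populations only, as given with the other observations, so the numbers go with sex as read from Xist. The count of genes above background was 25 to 26 in leave-one-out settings, 28 with the dim genes left out of the test as background and 13 at the 99th percentile. The median difference of the genes tested ran from -0.07 to 0.06 over the settings. Rspo2, Fzd4 and Lrp6 kept the sign of their differences under both rescalings and in the 6 leave-one-out fits, and Lrp4, Fzd1, Fzd2 and Fzd7 under both rescalings. Leaving out an array cannot turn the sign of these 4. In leave-one-out fits Fzd9 ran from -0.12 to 0.74 and Rspo3 from -0.35 to 0.076, both turning without targeted replicate 2. In the same fits Fzd1 ran from -0.82 to -0.42, Rspo2 from -0.95 to -0.45, Fzd7 from -0.50 to -0.29 and Fzd2 from -0.41 to -0.22. Genes near background have compressed differences.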

Other observations

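Sfrp2, a secreted Wnt inhibitor, divided the arrays by replicate number and not by population. It was at 7.63, 6.20 and 6.40 for targeted cells, against 7.54, 6.19 and 6.62 for non-targeted cells, so that replicate 1 of each population was high. Xist, the RNA of the inactive X chromosome, had the same arrangement, at 12.00, 5.80 and 5.64 for targeted cells, against 11.31, 5.88 and 5.74 for non-targeted cells. Both genes were picked after their values were seen, and no test was made.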
